A study of Arabidopsis thaliana with 6 samples.

Results

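Transcripts of 6 seed storage and oil body genes were followed array by array in 10-d-old *Arabidopsis* seedlings of the *gis5* mutant and of WT. The genes were taken as a named set, the cruciferin genes *CRA1* (AT5G44120) and *CRC* (AT4G28520), the albumin gene *SESA5* (AT5G54740), the vicilin-like gene *PAP85* (AT3G22640) and the oleosin genes *OLEO2* (AT5G40420) and *OLEO4* (AT3G27660). Each of the 6 had 1 probe set among the 22746 tested, and all 6 probe sets carry the ending that Affymetrix gives to sets designed for a single transcript. The probe set of *PAP85* was named through the annotation of the array. Those of the other 5 genes were named through the part of the study's own gene table that was read here, its first 1996 rows, in which genes are ordered by the size of their difference on these arrays, so that whether these 5 could be named depended on that difference.

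Seed storage proteins are made in the embryo while the seed matures. Cruciferins are globulins and the SESA proteins are small albumins, and both are packed into protein storage vacuoles, where vicilin-like globulins are also found. Oleosins coat the oil bodies that hold the triacylglycerol of the seed and keep them from fusing. Transcription of these genes is switched on by ABI3, FUS3, LEC1 and LEC2 and is shut down when the seed germinates. The proteins and the oil are used up as the seedling establishes itself, and vegetative tissue normally holds little of these transcripts.

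The *gis5* plants carry a point mutation, induced with EMS, in the gene that encodes the catalytic subunit of the replicative DNA polymerase δ, and the mutant had been backcrossed to WT. WT is Columbia. Whole seedlings, leaves and roots together, were grown on MS plates under continuous light, at 23°C according to the series' description (the methods give a slightly higher temperature), and total RNA was hybridised to ATH1 arrays. There were 3 biological replicates of each genotype, 1 array for each. The mutant is a single line, and a point mutation leaves no mark on a transcript level by which the genotype of an array could be checked here.

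Values are MAS5 signals, a linear intensity that the authors had scaled on every array to a trimmed mean of about 500. Array medians lay between 174 and 191. The bacterial control probe sets for *trp*, used here as a guide to background because the plant has no such transcript, gave signals between 1.09 and 45.2 over the 6 arrays. Rubisco activase (*RCA*), a leaf transcript, had signals from 34520 to 43820, and *PYK10* and *CASP1*, of the root, were bright on every array. The RNA quality ratio of actin 3′ to 5′ signal ranged from 4.39 to 4.99 in *gis5* and from 3.304 to 6.42 in WT.

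*CRA1* encodes the most studied of the 12S cruciferins. Its signal was 2.29, 540.3 and 179.5 in *gis5* replicates 1, 2 and 3, and 8.51, 21.0 and 8.14 in the WT replicates. *gis5* replicates 2 and 3 were far above every WT array, while *gis5* replicate 1 was not above any of them. That value and the 3 WT values all lay within the range of the bacterial controls pooled over the 6 arrays. Against the controls of their own array, WT replicates 2 and 3 lay above the highest, 13.05 and 6.55, while *gis5* replicate 1 and WT replicate 1 did not. The order of these dim values among themselves is not read. On *gis5* replicate 2 the *CRA1* probe set was brighter than 73.9% of all probe sets of that array, and on *gis5* replicate 1 brighter than 3.9%. In WT it was brighter than 11.9% to 19.3%. The mean of log2(signal + 16) was higher in *gis5* by 2.17 (standard error 1.14, 95% interval −0.56 to 4.89, adjusted p = 0.63 from limma over all probe sets). In RNA of whole seedlings, fewer cells that hold a transcript and less of it per cell cannot be told apart.

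*CRC* encodes another cruciferin, and it was the only member for which all 3 *gis5* arrays exceeded all 3 WT arrays. That was the case for 9.13% of all probe sets. The *CRC* signals of the mutant arrays were 66.3, 355 and 145, against 19.5, 43.9 and 7.30 in WT. As for *CRA1*, the brightest array was *gis5* replicate 2 and the dimmest of the mutant arrays was *gis5* replicate 1, but here that array still lay above the WT range. The log2 ratio was 2.21 (standard error 0.59, 95% interval 0.81 to 3.61), with an unadjusted p of 0.00757 and an adjusted p of 0.35 from limma. The two-sided exact permutation test of *CRC* gave p = 0.1, the smallest value that 3 arrays against 3 can give.

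*SESA5* encodes a 2S albumin. The mutant arrays gave 6.16, 241 and 174 and the WT arrays 29.9, 2.95 and 35.1. Replicates 2 and 3 of *gis5* were above every WT array, and *gis5* replicate 1 fell within the WT range. For *SESA5* limma gave a log2 ratio of 1.54 with a standard error of 0.94 (95% interval −0.70 to 3.77) and an adjusted p of 0.67.

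*PAP85*, which encodes a vicilin-like globulin, had a signal of 46.1, 170.0 and 164 in *gis5* and 102.5, 47.3 and 52.5 in WT. The same order of the mutant arrays was seen, with *gis5* replicates 2 and 3 above every WT array and *gis5* replicate 1 below all of them. The difference on the log2 scale was 0.67, with a standard error of 0.48, a 95% interval from −0.46 to 1.81 and an adjusted p of 0.72 in limma.

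The oleosin genes differed from each other. *OLEO2* had a signal of 99.1, 314.5 and 337 in *gis5*, and 149.6, 144 and 159.8 in WT. The WT arrays were close together, with *gis5* replicates 2 and 3 above them and *gis5* replicate 1 below. For *OLEO2* limma gave a log2 ratio of 0.51 with a standard error of 0.43 and an adjusted p of 0.76. *OLEO4* had a signal of 113, 66.35 and 81.4 in *gis5* and 67.5, 53.6 and 45.9 in WT, so that here *gis5* replicate 1 was the brightest array and *gis5* replicate 2 lay just under the highest WT array. The log2 ratio of *OLEO4* was also 0.51, with a smaller standard error of 0.22 (95% interval −0.02 to 1.03, adjusted p = 0.56 from limma).

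**Figure D1:**
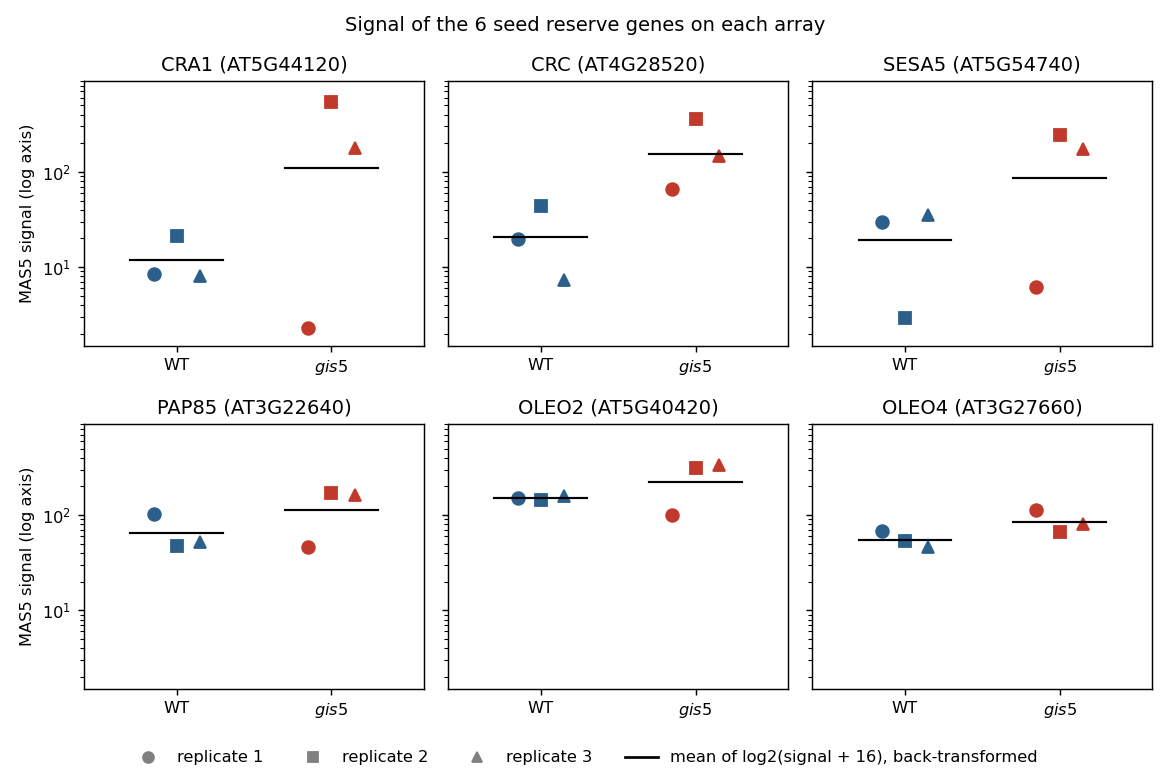
MAS5 signal (log axis) of each gene on the 3 WT and 3 *gis5* arrays, with a symbol for each replicate number and a bar at the mean of log2(signal + 16), back-transformed. In all genes but *OLEO4*, *gis5* replicate 1 (red circle) is the dimmest mutant array, down to 2.29 for *CRA1*, and *gis5* replicates 2 and 3 lie above every WT array.

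No member passed an adjusted p of 0.05, which 0.0044% of all probe sets did. The methods of the study asked for an unadjusted p under 0.05 together with a log2 ratio of 1 or more in either direction, which 1.92% of all probe sets met in either direction and 1.38% as higher in *gis5*. Of the members 1 of 6 met it, *CRC*, as higher. An unadjusted p under 0.05 alone was found for 1 of the 6, again *CRC*, and for 9.05% of all probe sets. All 6 had a positive log2 ratio, with a median of 1.11, where 53.6% of all probe sets were positive and the median was 0.03. By the size of the ratio *CRC* and *CRA1* stood at ranks 12 and 13 of 22746, *SESA5* at 67, *PAP85* at 1864, and *OLEO2* and *OLEO4* at 3428 and 3434. These signs, sizes and ranks belong to the contrast by which the study's gene table is ordered, and most members were named through that table. They are a description, and the shares of all probe sets, which were not chosen in that way, are given for scale only. The exact permutation p-values of the members other than *CRC* were between 0.2 and 0.4, two-sided.

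The pattern the members shared was the order of the mutant arrays. In 5 of the 6, all but *OLEO4*, *gis5* replicate 1 was the lowest mutant array, which held for 34.7% of all probe sets. In 4 of the 6, *CRA1*, *SESA5*, *PAP85* and *OLEO2*, *gis5* replicates 2 and 3 were both above every WT array while *gis5* replicate 1 was not, against 5.48% of all probe sets. These counts were 5 and 4 also with the arrays centred on their medians and after quantile normalization. Most members could be named only because of their difference on these same arrays, so the counts are a description. Between *gis5* replicates 2 and 1, *CRA1* differed by 4.93 on the log2(signal + 16) scale, *SESA5* by 3.54, *CRC* by 2.17, *PAP85* by 1.58 and *OLEO2* by 1.52, whereas *OLEO4* differed by −0.65. The median difference between these arrays over all probe sets was 0.003. For both *gis5* replicate 2 and *gis5* replicate 3 against *gis5* replicate 1, *CRA1* and *SESA5* had the largest and second largest differences of the 22746 probe sets. Their signals on *gis5* replicate 1, 2.29 and 6.16, lay within the range of the bacterial controls on that array, 1.42 to 24.2, so that the sizes of these differences, and of the SDs that rest on them, depend on values not above background. Replicate 3 minus replicate 2 of *gis5* gave −1.51 for *CRA1*, −1.20 for *CRC*, −0.43 for *SESA5*, −0.04 for *PAP85*, 0.09 for *OLEO2* and 0.24 for *OLEO4*, so that *CRC* on replicate 3 was nearer to replicate 1, from which it differed by 0.97, than to replicate 2.

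The spread within the mutant was correspondingly wide. *CRA1* had an SD of 2.52 in log2(signal + 16) over the 3 *gis5* arrays and 0.35 over the 3 WT arrays, and *SESA5* had 1.93 and 0.79. Their SDs within *gis5* were the largest and second largest of all probe sets, and the next was that of *LCR67* (AT1G75830) at 1.604. *OLEO2* had an SD of 0.91 in *gis5* and 0.07 in WT, where it ranked at 21140 of 22746 and so belonged to the steadiest transcripts of the WT seedlings. The SD was larger in *gis5* than in WT for all 6 members, which was the case for 44.1% of all probe sets. This too is a description, since most members were named through a table ordered by the difference on these arrays. Over all probe sets the median SD was 0.22 in *gis5* and 0.25 in WT, so that the mutant arrays as a whole were not the more variable ones.

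**Figure D2:**
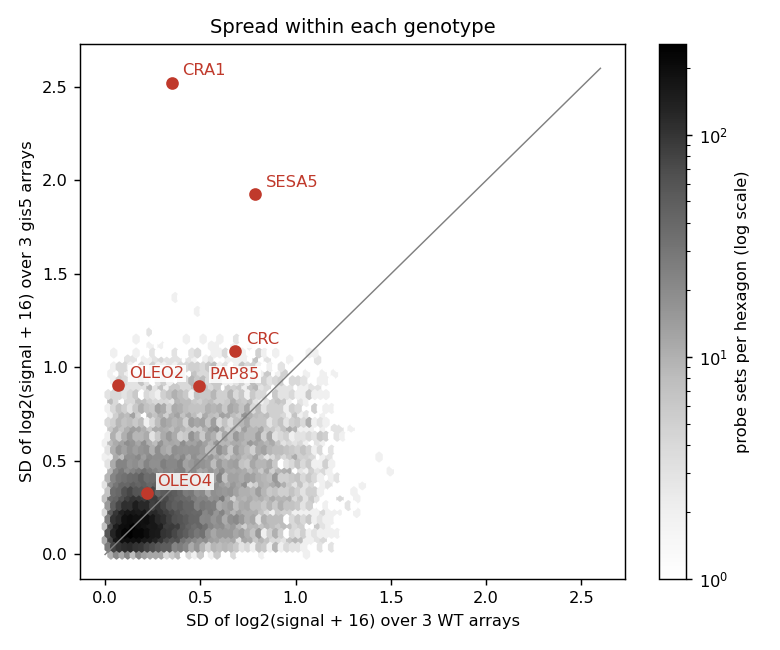
SD of log2(signal + 16) over the 3 WT arrays (x axis) and over the 3 *gis5* arrays (y axis), with the number of probe sets in each hexagon on a grey log scale, the 6 genes in red and a line at equal SD. *CRA1* (2.52 in *gis5*) and *SESA5* (1.93) lie above all other probe sets, and *OLEO2* has one of the smallest SDs in WT (0.07).

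Across the 6 arrays, which share the same RNA samples and are not independent for different genes, the log2 values of *CRA1* had a Pearson correlation of 0.92 with *OLEO2*, 0.90 with *SESA5*, 0.88 with *CRC* and 0.85 with *PAP85*, and of −0.003 with *OLEO4*. *SESA5* and *OLEO2* were correlated at 0.94. *OLEO4* was correlated with the other 5 at between −0.14 and 0.40.

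The estimate of each ratio depended on single arrays. Without *gis5* replicate 1 the log2 ratios were 3.56 for *CRA1*, 2.73 for *CRC*, 2.64 for *SESA5*, 1.19 for *PAP85* and 1.03 for *OLEO2*, and these 5 met the thresholds of the methods, with adjusted p-values from limma of 0.21 (*CRA1*) to 0.45 (*PAP85*). *OLEO4* went the other way, to 0.33. Without *gis5* replicate 2 the log2 ratio of *CRA1* was 1.096, that of *SESA5* 0.88, that of *PAP85* 0.40 and that of *OLEO2* 0.27. Without *gis5* replicate 3 that of *OLEO2* was 0.22 and that of *PAP85* 0.42. Under every array left out, the 6 ratios kept a positive sign, and *CRC* stayed between 1.65 and 2.73.

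**Figure D3:**
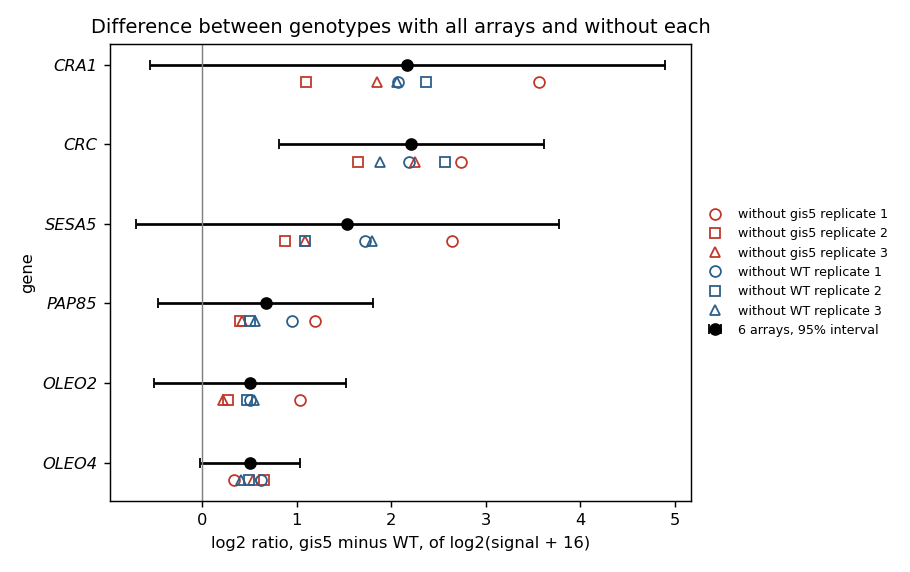
Log2 ratio of *gis5* to WT on the log2(signal + 16) scale (x axis) for each gene, with all 6 arrays (black, 95% interval from limma) and without each array in turn (open symbols, red for a *gis5* array and blue for a WT array). Leaving out *gis5* replicate 1 moves *CRA1* from 2.17 to 3.56, and only the interval of *CRC* lies wholly above 0.

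Other genes were looked up from lists of seed storage and oil body genes. In these and the later lists, *RD20*, *PER1*, *HSP17.4*, *MLS*, *LTP3*, *CASP1* and *PI* were named through the same ordered gene table as most members. Whether they could be measured thus depended on their difference on these arrays, and list counts that hold them are a description. Of the other 3 vicilin-like genes, AT2G28490 had the members' order of mutant arrays, with a signal of 75.5, 220.2 and 170.3 in *gis5* and 95.8, 83.1 and 164 in WT. AT4G36700 had a lower signal on every *gis5* array (12.7, 36.6 and 26.3) than on any WT array (39.7, 45.6 and 40.6), and its log2 ratio was −0.54 (adjusted p = 0.57). Every *gis5* array was below every WT array for 6.79% of all probe sets. AT2G18540 did not separate the genotypes. The third measured cruciferin gene, AT1G03890, was dim throughout, at 4.42, 20.1 and 21.99 in *gis5* and 2.81, 1.75 and 4.05 in WT, levels that overlap those of the bacterial controls. Its log2 ratio was 0.69 (unadjusted p = 0.0351, adjusted p = 0.51), and without *gis5* replicate 1 it was 0.97. The albumin genes *SESA1* to *SESA4* and the cruciferin gene at AT1G03880 were not analysed here.

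Among the other 9 oil body genes with a named probe set, AT3G01570 followed *OLEO2* most closely. It had a signal of 96.2, 236 and 279.9 on the mutant arrays and 89.5, 138 and 153 in WT, and its log2 ratio was 0.54 (adjusted p = 0.73), or 0.27 without *gis5* replicate 3 and 0.97 without *gis5* replicate 1. *OLEO3* (AT5G51210), another oleosin gene, gave 50.4, 61.4 and 52.7 in *gis5* and 100.6, 51.4 and 47.1 in WT, with no separation of the genotypes. *RD20* (AT2G33380), which encodes a caleosin of vegetative tissue induced by drought, was lower on every mutant array, at 146, 151 and 140.5 against 222, 172.5 and 212 in WT (log2 ratio −0.43, unadjusted p = 0.0312, adjusted p = 0.49 from limma). Such a separation, with the mutant lower, was found for 6.79% of all probe sets. Of these 13 other storage and oil body genes together, 6 had a positive and 7 a negative log2 ratio, 1 was higher and 1 lower at an unadjusted p under 0.05, which 5.99% and 3.06% of all probe sets were, and none passed an adjusted p of 0.05. The oil body list was not confined to genes of the seed. It held *RD20*, and also genes brighter than the array median on every array. Of the latter, AT1G67360 had a positive log2 ratio (0.34), and AT3G05500 (−0.04), AT5G16550 (−0.27) and AT4G10790 (−0.38) had negative ones. These counts are thus not of seed reserve genes alone. In 7 of the 13, *gis5* replicate 1 was the lowest mutant array, beside 34.7% of all probe sets. In 2 of the 13, *gis5* replicates 2 and 3 were above every WT array while *gis5* replicate 1 was not, beside 5.48% of all probe sets. This count was 3 with the arrays centred on their medians and 2 after quantile normalization.

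LEA proteins accumulate in the drying seed and protect cells against desiccation. Of 25 genes listed for this function, 13 had a named probe set, and in 11 of these *gis5* replicate 1 was the lowest mutant array, beside the 34.7% of all probe sets; this count was also 11 with the arrays centred on their medians and after quantile normalization. The other 2 were *M10*, which was dim, and the small heat shock gene *HSP17.4*. AT3G15670, of the LEA list, had a signal of 190.4, 539.5 and 692 in *gis5*, and 250.1, 187 and 188 in WT. Only *gis5* replicates 2 and 3 stood above WT there, and its log2 ratio was 0.96 (adjusted p = 0.59), or 1.496 without *gis5* replicate 1 and 0.61 without *gis5* replicate 3. *LEA18* (AT2G35300) had 329, 655 and 715 in *gis5* and 491, 435 and 389 in WT, and *LEA4-1* (AT1G32560) had 291.5, 732 and 726 against 489, 664 and 397. In both, *gis5* replicate 1 was the lowest of all 6 arrays. *M17* (AT2G41260), which is transcribed in maturing seeds, reached 360.0 on *gis5* replicate 2 and was between 96.7 and 123 on the other mutant arrays and between 48.8 and 96.4 in WT, a log2 ratio of 1.00 that was 0.47 without *gis5* replicate 2. *PER1* (AT1G48130), a peroxiredoxin gene of dry seeds, did not share the gap between mutant arrays: it had 335, 353 and 416.5 on the mutant arrays and 273, 207 and 258 in WT, a log2 ratio of 0.55 (unadjusted p = 0.0165, adjusted p = 0.44). Over the 13 genes 11 ratios were positive, beside 53.6% of all probe sets, with a median of 0.36. *PER1* alone, 1 of 13, had an unadjusted p under 0.05, beside 9.05% of all probe sets, and none passed an adjusted p of 0.05.

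The enzymes of the glyoxylate cycle turn stored oil into sugar in the germinating seedling. *ICL* (AT3G21720), for isocitrate lyase, had a signal of 401, 1129 and 987 in *gis5* and 367.5, 472 and 552 in WT, and *MLS* (AT5G03860), for malate synthase, had 209, 372 and 330.5 in *gis5* and 227, 227 and 227.5 in WT. For both, *gis5* replicates 2 and 3 were above every WT array and *gis5* replicate 1 was not. The log2 ratio of *ICL* was 0.72 (adjusted p = 0.64) and that of *MLS* 0.36 (adjusted p = 0.69 from limma); without *gis5* replicate 1 they were 1.18 and 0.59, and without *gis5* replicate 2 they were 0.45 and 0.20. *SDP1* (AT5G04040), for the lipase that starts oil breakdown, did not follow, with 474, 539 and 299.6 in *gis5* and 525, 517 and 555 in WT. Among the vacuolar processing enzyme genes, *αVPE* (AT2G25940) was higher on every mutant array, at 129, 84.6 and 101 against 70.6, 57.2 and 40.3 in WT (log2 ratio 0.75, unadjusted p = 0.0132, adjusted p = 0.42), and *γVPE* (AT4G32940) likewise, at 4729, 5086 and 5024 against 3616, 4274 and 3711 (log2 ratio 0.36, unadjusted p = 0.0475, adjusted p = 0.55). With arrays centred on their medians the unadjusted p of *γVPE* in limma was 0.103. For both, *gis5* replicate 1 lay above WT together with the other mutant arrays, which was the case for 9.13% of all probe sets. *βVPE* (AT1G62710), the form of the seed, had the order of *ICL* and *MLS* with small gaps, at 197.0, 277.7 and 266.6 in *gis5* and 216.4, 263.8 and 207.8 in WT, and a log2 difference of 0.09 between genotypes. Of the 9 genes of reserve mobilisation measured out of 21, 2 were higher and 1 was lower at an unadjusted p under 0.05, beside 5.99% and 3.06% of all probe sets, the lower one being *SDP1L* (AT3G57140), a dim relative of *SDP1*, at a log2 ratio of −0.97, and none passed an adjusted p of 0.05.

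**Figure D4:**
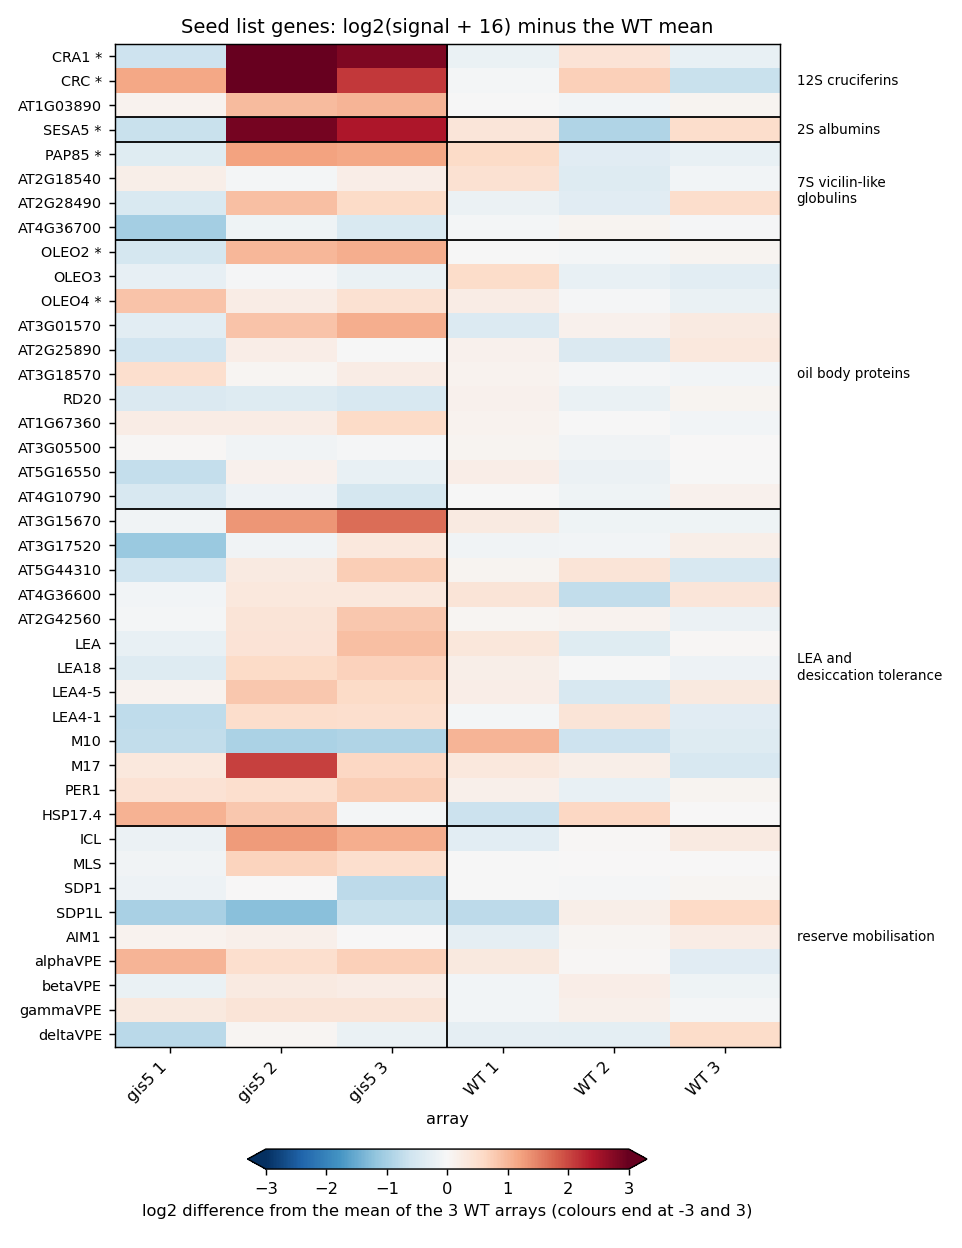
Log2(signal + 16) of the storage, oil body, LEA and reserve mobilisation genes (rows, the 6 genes of the set with an asterisk) on each array (columns), minus the mean of the 3 WT arrays; red is higher, blue lower, and the colour scale is cut at both ends. *CRA1*, *CRC*, *SESA5*, AT3G15670, *ICL* and *MLS* are redder on *gis5* replicates 2 and 3 than on *gis5* replicate 1, and *RD20* is blue on all mutant arrays.

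**Figure D5:**
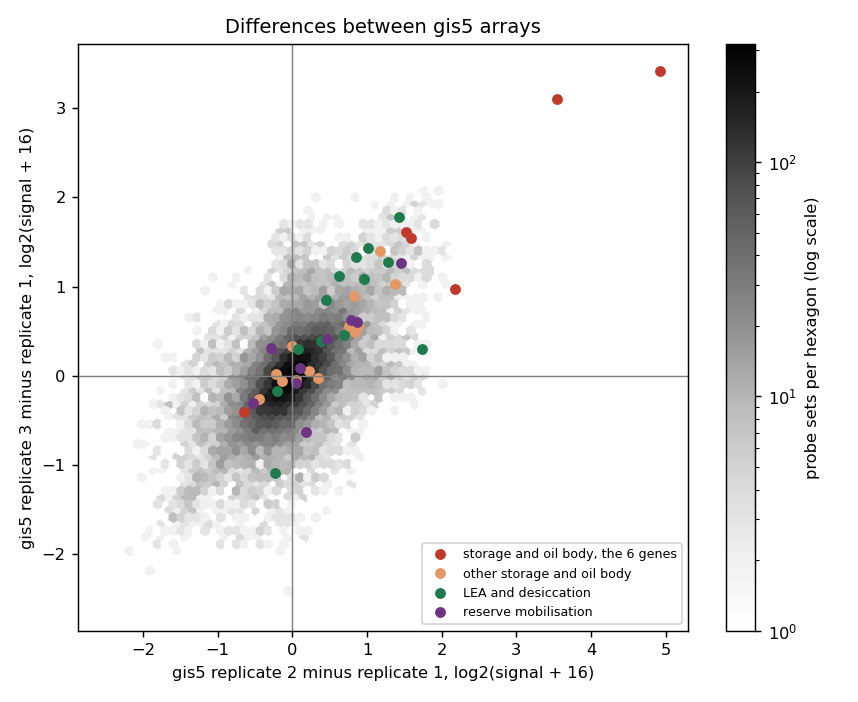
Difference in log2(signal + 16) of *gis5* replicate 2 (x axis) and of *gis5* replicate 3 (y axis) from *gis5* replicate 1, for all probe sets (grey hexagons, log scale of their number) and for the seed genes (coloured points). Both axes subtract the same array, which by itself stretches the cloud along the diagonal; *CRA1* (4.93 and 3.42) and *SESA5* (3.54 and 3.103) lie farthest to the upper right, and *OLEO4* lies on the negative side of both axes.

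Of the regulators of seed maturation, only 2 of 15 had a named probe set. *bZIP53* (AT3G62420), a bZIP factor that activates storage genes together with ABI3, had a bright signal of 1954, 2216 and 1812 in *gis5* and 2078, 2003 and 2364 in WT, a log2 ratio of −0.11. *EEL* (AT2G41070), a bZIP factor of late embryogenesis, had 82.0, 87.6 and 85.4 in *gis5* and 78.2, 44.0 and 59.9 in WT, and its log2 ratio was 0.42 (adjusted p = 0.59 from limma). The genotypes did not overlap for *EEL*, with the mutant the brighter, as for 9.13% of all probe sets. *ABI3*, *FUS3*, *LEC1*, *LEC2* and the 18 listed repressors of seed genes in seedlings were not analysed here.

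Abscisic acid, which induces LEA genes in the seed, also acts in vegetative tissue. The 3 measured of 16 genes of that vegetative response did not share the order of the mutant arrays, and in none of them was *gis5* replicate 1 the lowest. In all 3 the mutant arrays were brighter than WT without overlap, which held for 9.13% of all probe sets. *LTP3* (AT5G59320), a lipid transfer protein gene, was highest on *gis5* replicate 1, with 698, 313 and 289 in *gis5* and 287, 219 and 201.5 in WT. *COR15A* (AT2G42540), a gene of cold and drought response, had 144, 58.5 and 104 in *gis5* and 38.7, 48.9 and 55.1 in WT (log2 ratio 0.84, unadjusted p = 0.0263, adjusted p = 0.48). *LTI30* (AT3G50970), a dehydrin gene, had 2567, 2218 and 2762 in *gis5* and 2120, 1929 and 1852 in WT.

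Markers of other tissues were read on the same arrays. Of 8 genes of the seed coat and endosperm, 2 had a named probe set. *BAN*, of the seed coat, had 6.10, 12.6 and 1.96 in *gis5* and 57.5, 2.18 and 4.46 in WT, and the other, AT3G50990, did not exceed 6.16 on any array, so that the summed signal of both ranged from 3.81 to 14.3 in *gis5* and from 6.08 to 63.7 in WT. Of the 3 root markers, *PYK10* and *CASP1* were not lowest on *gis5* replicate 1 among the mutant arrays, and *EXPA7* was, with 153.6, 201.8 and 164.2 in *gis5* and 175.4, 60.03 and 71.9 in WT. *PI*, the 1 floral organ gene measured out of 3, had 103, 345 and 141 in *gis5* and 102.4, 129.6 and 100.8 in WT, and thus had the members' pattern, with *gis5* replicates 2 and 3 above every WT array and *gis5* replicate 1 not. Whether any of these sources had a part in the levels of the reserve genes was not tested.

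The probe sets most like the mean profile of the 6 members were sought among the 3808 with a single named gene and an SD of at least 0.5 over the 6 arrays. The 10 closest had Pearson correlations of 0.98 to 1.00 and were all dim, with mean signals over the 6 arrays between 9.11 and 24.2. On *gis5* replicate 2 all of them, at 23.2 to 74.3, lay above the highest bacterial control of that array, 16.5. On the other arrays none did so except AT4G18650 on *gis5* replicate 3, at 57.0 against 45.2. AT5G61605 led them, with 2.201, 44.7 and 28.6 in *gis5* and 5.17, 2.51 and 3.00 in WT. Among the 187 such probe sets above the median signal, a choice made after these values were seen, the LEA list gene AT3G15670 came first (0.95) and *ICL* came second (0.93). They were followed by AT2G38465 (0.92) and AT3G02480 (0.92), the latter with a signal of 229, 866.5 and 1418 in *gis5* and 274, 315 and 309 in WT. *MLS*, with a smaller SD than the rule asked for, had a correlation of 0.99 with the members' profile, and *LEA18* one of 0.89. With 6 arrays and so many probe sets these correlations describe the arrays and carry no test.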

How the data were processed

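RNA of 3 *gis5* and 3 WT seedling samples was hybridised to Affymetrix ATH1 arrays. The authors deposited, for each array, the signal intensity of every probe set on a linear scale. The labels name MAS5, with no version given, and the table has a trimmed mean of about 500 on each array. Detection calls and raw array files were not used here, and the gene list of the study was made with RMA, a different summary.

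The 64 Affymetrix controls were left out and log2(signal + 16) of 22746 probe sets was fitted by limma 3.58.1 (lmFit, then eBayes, under R 4.3.3) with a single term for genotype, and p-values were adjusted by Benjamini-Hochberg across the whole table. Arrays were not rescaled, because their medians differed by 9.53%, under a limit of 10%. Log2 ratios are differences between the genotypes' mean log2(signal + 16), so that changes of dim transcripts appear smaller than they are. The fit was tested on simulated data. There only probe sets above the median level were changed, with a spread smoothed by brightness, so the test does not cover dim members with a wide spread. Arrays with the same replicate number did not deviate together (correlations −0.06, −0.00028 and −0.04), so the block by replicate number served as an alternative only.

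The members and gene lists were chosen with earlier results of these data known, and set tests were not run. Of 147 list entries, 53 had a named probe set, 12 of them through the study's gene table ordered by the difference on these arrays. A gene with several probe sets was taken by the brightest, and probe sets of several genes were left out. The rule named the 6 members, up to 3 genes per list with the smallest p and up to 3 with the largest range, and the 10 probe sets most like the members' mean profile; *SDP1*, *βVPE*, *OLEO3*, *LEA18*, *LEA4-1*, *HSP17.4*, *LCR67*, AT2G18540, AT3G02480 and AT2G38465 were named after their values were seen where it did not reach them. Symbols came from the array annotation and the RefSeq table of TAIR10.1, and coordinates were left out, since the sources used here name no build. Alternatives were other normalizations, pseudocounts of 1 and 64, other variance models, array weights, filters on dim or less specific probe sets, and leaving out each array.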

Additional observations from a re-analysis of the deposited data

How the results depend on the processing

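The log2 ratios of all 6 members kept a positive sign in every alternative that could be computed; of the members, only *OLEO2* is bright enough for the test of probe sets above the median signal. With all 6 arrays 1 member met the thresholds of the methods and none passed an adjusted p of 0.05. With a pseudocount of 64 these thresholds were met by 2 members, *CRC* and *CRA1*, and with each array left out in turn by 1 to 5, the 5 being those without *gis5* replicate 1. With a trended and robust variance 1 member, *CRC*, passed, at an adjusted p of 0.0417 in limma, while its adjusted p ranged from 0.0417 to 0.63 over all alternatives; with each array left out no member passed (0 to 0). With the replicate number as a block *CRC* kept its log2 ratio of 2.21 (adjusted p = 0.43), and the block changed no call of a member at an adjusted p of 0.05 or at the thresholds of the methods. At an unadjusted p under 0.05 it added *OLEO4*, so that 2 members passed in place of 1. Among the list genes followed through the alternatives it added *ICL* and *M10* and took away *RD20* and *γVPE*. Some genes named here, among them *LTI30*, *LTP3* and *EXPA7*, were not followed in this way. Of the list genes named with an unadjusted p under 0.05, *αVPE* kept it with each array left out. *PER1* lost it without WT replicate 2 or *gis5* replicate 3. With arrays left out, AT1G03890 kept it only without *gis5* replicate 1, and *RD20* and *γVPE* only without WT replicate 2. *SDP1L* kept it only without WT replicate 1 or *gis5* replicate 3, and *COR15A* only without WT replicate 3 or *gis5* replicate 2. The SD of *CRA1* over the *gis5* arrays ranked at 1 with each pseudocount, and that of *SESA5* at 4, 2 and 3 with 1, 16 and 64, whereas *OLEO2* ranked at 3584, 615 and 29 and *CRC* at 2868, 123 and 9, an alternative chosen after the data were seen. Of the 13 other storage and oil body genes and the 13 LEA genes, 3 had an unadjusted p under 0.05, as did 9.05% of all probe sets. The count was 5 with arrays centred on their medians, 6 after quantile normalization, 6 with a pseudocount of 64, 6 with a trended and robust variance, and 0 to 7 with each array left out, 0 without *gis5* replicate 3 and 7 without *gis5* replicate 1.

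Over all probe sets, 437 met the thresholds of the methods, 71.9% of them higher in *gis5*, a share that was 57.8% with arrays centred on their medians and 58.0% after quantile normalization. The count was 757 with a pseudocount of 1, 58 with 64, 48 among probe sets above the median signal, and 527 to 683 with each array left out. At an adjusted p under 0.05 there was 1 probe set, and 0 with a pseudocount of 1, 0 with the replicate block, 0 to 0 with each array left out, 7 with array weights, 43 with a pseudocount of 64, 109 above the median signal and 145 with a trended and robust variance. The causes of these shifts were not tested. Precision is limited by how few arrays there were. Dim signals, those of *CRA1*, *CRC* and *SESA5* in WT and of *CRA1* and *SESA5* on *gis5* replicate 1, leave the size of their ratios open to the constant added. Some of these WT signals, but not all, lay above the highest bacterial control of their own array.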
